A study of Macaca mulatta with 10 samples.

Results

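Fibroblast growth factors (FGFs) and their receptors were followed in whole testis of juvenile rhesus macaques (Macaca mulatta), 10 males in all. The members were chosen by name, 6 ligands (FGF1, FGF2, FGF7, FGF9, FGF10 and FGF18) and 4 receptors (FGFR1 to FGFR4), and each matched 1 row of the deposited count table, so that 10 of 14118 genes with a symbol are described. The members and the gene lists used below were chosen with earlier results of these data known. All animals were wild type, and the groups differed in a pulsatile infusion of vehicle (n = 3), of the pituitary gonadotropins FSH and LH for 48 h (n = 3), or of the same hormones for 96 h (n = 4). The labels do not tie a duration to the vehicle infusion. Ages in the vehicle group were 24 months (TP07), 14 months (TP09) and 15 months (TP11), and in the 48 h group 22 months (TP08), 14 months (TP10) and 15 months (TP12). The 96 h animals TP15, TP16, TP17 and TP18 were 14 months of age. Each library holds RNA of the right testis of 1 animal.

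FGFs of the kind listed here are secreted proteins that bind heparan sulfate and activate receptor tyrosine kinases on neighbouring cells. Ligand, receptor and heparan sulfate form a complex, the receptor phosphorylates the adaptor FRS2, and the signal passes through GRB2, SOS1 and RAS to the MAP kinases. SPRY and DUSP genes are switched on by this route and damp it in turn. In the testis FGF9 is known for its part in Sertoli cell fate in the fetal gonad, FGF2 is used to keep spermatogonial stem cells in culture, and FGFR3 is a marker of undifferentiated spermatogonia in primates. FGF7 and FGF10 are typically made by mesenchymal cells and signal to epithelia through a splice form of FGFR2.

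Library totals ran from 21824233 to 30375928 counts, and the members had between 19 and 2442 counts in a library. Levels are CPM, counts relative to the library total, scaled by the TMM factors of edgeR, and 3 counts, taken as the floor, equal 0.137 CPM where depth was lowest. All 9 Sertoli cell, 6 Leydig cell and 6 general germ cell markers checked had counts in every group. A call means an adjusted p below 0.05 in the quasi-likelihood test of edgeR over all 26813 loci.

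At 48 h FGF7 fell and no other member passed the test. At 96 h FGF9, FGFR3 and FGFR4 fell. No member passed in the higher direction, and FGFR2 at 96 h came nearest. The background among all symbols was 3.29% called lower and 14.5% called higher at 48 h, and 6.88% called lower and 17.2% called higher at 96 h. The median log2 fold change of the 10 members was -0.41 at 48 h and -0.95 at 96 h, beside 0.07 and 0.08 for all symbols. Both comparisons use the same 3 vehicle libraries. By unadjusted p below 0.05 there were 4 members at 48 h (34.2% of symbols) and 6 at 96 h (42.1% of symbols). For 5 members every 48 h animal lay below every vehicle animal, as it did for 13.2% of symbols, and for 0 members above (28.7% of symbols). At 96 h the same held for 4 members below (12.9% of symbols) and 1 member above (24.7% of symbols). As the members were chosen with earlier results known, these counts and medians describe the 10 genes and do not test the family.

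**Figure D1:**
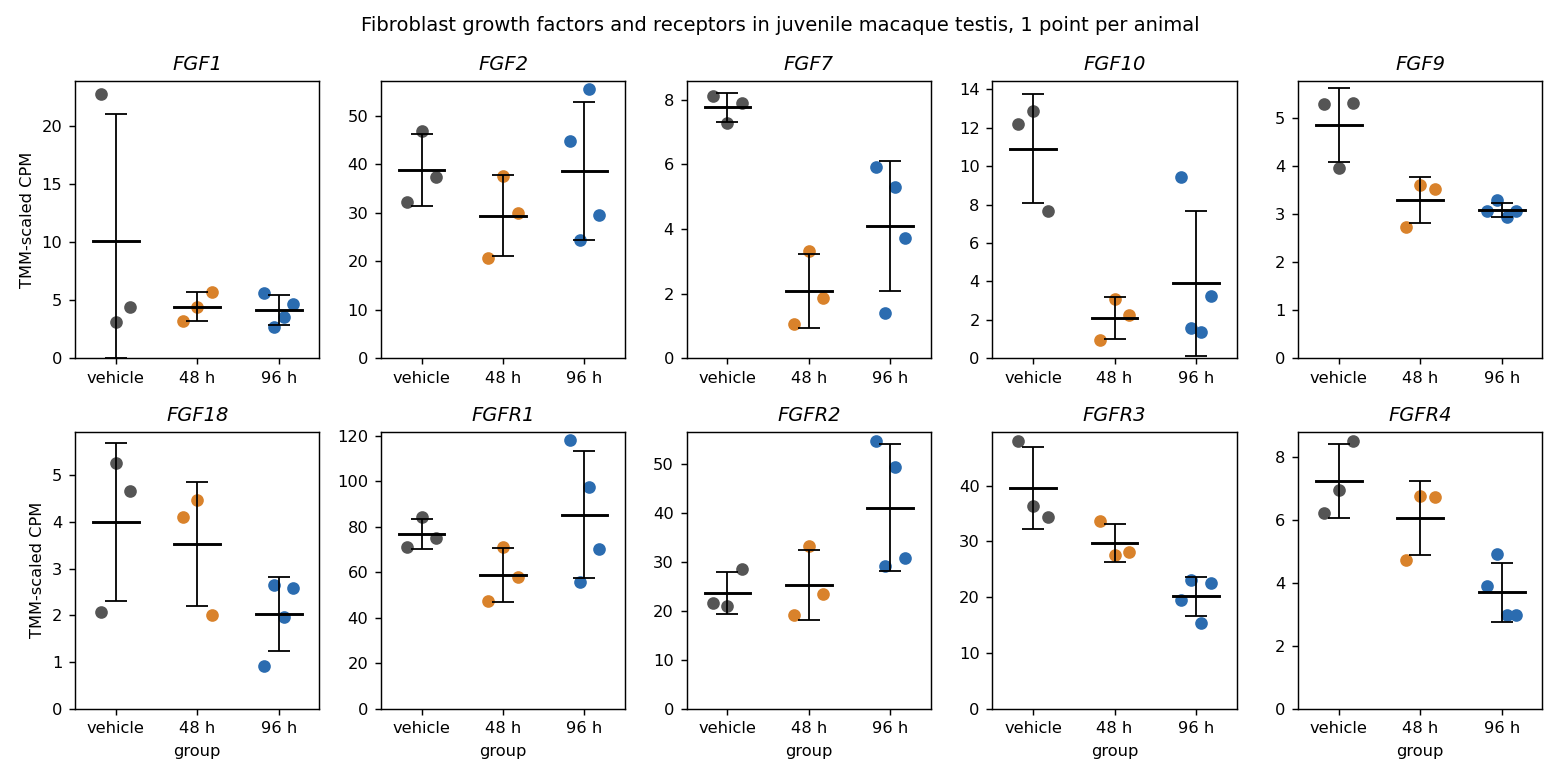
TMM-scaled CPM of the 10 members, with 1 point per animal, the horizontal line at the group mean and bars of 1 SD (lower ends stop at 0), for vehicle, 48 h and 96 h testes. FGF7 and FGF10 are low in all 48 h animals, 1 vehicle animal stands at 22.7 CPM for FGF1, and FGFR3 steps down from vehicle to 48 h to 96 h.

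FGF7, also called keratinocyte growth factor (chromosome 7, 25743647 to 25816973 on rheMac8, plus strand), was 8.12, 7.27 and 7.92 CPM in vehicle animals TP07, TP09 and TP11. It was 1.04, 3.32 and 1.88 CPM in 48 h animals TP08, TP10 and TP12, and 5.91, 1.41, 5.31 and 3.72 CPM in 96 h animals TP15 to TP18. Every gonadotropin animal lay below every vehicle animal, and vehicle values were close to each other while treated ones spread widely. FGF7 fell from 7.77 ± 0.448 to 2.08 ± 1.15 CPM at 48 h (SD, n = 3 each), or -1.90 ± 0.50 on the log2 scale (SE; edgeR adjusted p = 0.0324). At 96 h it was 4.09 ± 2.01 CPM (n = 4) and did not pass (log2 fold change -0.93 ± 0.45, edgeR adjusted p = 0.168). Whether fewer FGF7-expressing cells or less RNA per cell lay behind a lower level cannot be told apart in whole testis, here or for the other members. The call at 48 h was lost when TP07, TP09, TP11, TP08 or TP12 was left out, with log2 fold changes of -1.95 to -1.58 and edgeR adjusted p from 0.0712 to 0.11.

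FGF10, the close relative of FGF7 (chromosome 6, 45256672 to 45345765, minus strand), had the lowest 48 h to vehicle ratio of the members. Vehicle animals TP07, TP09 and TP11 had 12.2, 12.9 and 7.66 CPM, and 48 h animals TP08, TP10 and TP12 had 0.944, 3.07 and 2.27 CPM. The 96 h animals TP15 to TP18 had 9.44, 1.56, 1.37 and 3.21 CPM. All 48 h animals and 3 of the 4 animals treated for 96 h lay below the vehicle range, while TP15 lay inside it. The vehicle mean was 5.22 times that at 48 h, yet the test did not pass (log2 fold change -2.38 ± 0.72, edgeR adjusted p = 0.0579). At 96 h the log2 fold change was -1.49 ± 0.63 (edgeR adjusted p = 0.128). The call depended on the method and on which 96 h animals entered the fit. In the authors' deposited table FGF10 has an FDR of 0.00245 at 48 h and 0.0411 at 96 h. DESeq2 gave an adjusted p of 0.00244 at 48 h. Without TP15, FGF10 passed both at 48 h (log2 fold change -2.38, edgeR adjusted p = 0.0101) and at 96 h (-2.41, edgeR adjusted p = 0.0103). It also passed at 48 h without TP16 or TP17 (edgeR adjusted p = 0.0473 and 0.0448).

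Since FGF7 and FGF10 are typically mesenchymal ligands, stromal markers were read in the same libraries. The summed level of 7 markers of interstitial stroma and Leydig progenitors was 1744 to 2479 CPM in vehicle, 2068 to 3054 CPM at 48 h and 2449 to 5290 CPM at 96 h, with 0 markers at 0 counts. Over all symbols 14.5% were called higher at 48 h and 17.2% at 96 h. Of the 7 stromal markers 2 were called higher at 48 h (DLK1 and IGF1) and 3 at 96 h (with PDGFRA) and 0 lower. The sum therefore includes genes that rose, such as IGF1 with means of 167, 606 and 877 CPM in vehicle, 48 h and 96 h testes. DCN, the most abundant of the 7, had means of 1507, 1286 and 2200 CPM and TCF21 had 22.6, 18.7 and 24 CPM in the same order, without a call. These 2 had the smallest p of the uncalled markers at 48 h, and NR2F2 and LUM had no call either. The median log2 fold change of the 7 markers was 0.06 at 48 h and 0.62 at 96 h. The epithelial markers PAX8, KRT19, EPCAM and CDH1 of rete testis and excurrent ducts summed to 34.4 to 57.9 CPM in vehicle, 61.5 to 70.5 CPM at 48 h and 34.9 to 48.6 CPM at 96 h. The part of stromal or epithelial content in the levels of FGF7 and FGF10 was not tested.

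FGF1, the acidic FGF that can bind all 4 receptors (chromosome 6, 140400331 to 140494116, minus strand), was marked by 1 animal. TP07 had 22.7 CPM, whereas TP09 and TP11 had 3.11 and 4.39 CPM. The 48 h animals TP08, TP10 and TP12 had 3.20, 4.37 and 5.73 CPM, and the 96 h animals TP15 to TP18 had 5.62, 2.71, 3.54 and 4.62 CPM. TP07, at 24 months the oldest animal, stood apart from all 9 others, which spanned 2.71 to 5.73 CPM. The log2 fold changes of -1.18 ± 0.65 at 48 h and -1.29 ± 0.61 at 96 h did not pass (edgeR adjusted p = 0.271 and 0.163). Without TP07 they turned to 0.24 and 0.13 (edgeR adjusted p = 0.726 and 0.836), so no direction can be given for FGF1.

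FGF2, the basic FGF (chromosome 5, 121817456 to 121890181, plus strand), had the highest mean level per kb of exon of the ligands in each group. In TP07 FGF1 was above it per kb (5.99 against 4.48). FGF2 was 32.1, 46.8 and 37.3 CPM in TP07, TP09 and TP11, 20.7, 37.6 and 29.9 CPM in TP08, TP10 and TP12, and 44.8, 24.4, 55.4 and 29.5 CPM in TP15 to TP18. The 3 groups overlapped. Its log2 fold change was -0.40 ± 0.31 at 48 h and -0.01 ± 0.29 at 96 h (edgeR adjusted p = 0.442 and 0.985). The FGF2 models share 637 exonic bases, 8.88% of their length, with the NUDT6 gene on the opposite strand. The libraries were stranded, but the strand setting of the counting is not given in the sources used here, so reads in that stretch may belong to either gene.

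FGF9, the Sertoli cell fate ligand (chromosome 17, 1923406 to 1956583, plus strand), fell at 96 h. TP07, TP09 and TP11 had 5.28, 3.95 and 5.30 CPM, the 48 h animals TP08, TP10 and TP12 had 2.73, 3.61 and 3.53 CPM, and the 96 h animals TP15 to TP18 had 3.05, 3.29, 2.94 and 3.06 CPM. All treated animals lay below all vehicle animals, and the 96 h values were nearly equal. The level went from 4.84 ± 0.773 CPM in vehicle (n = 3) to 3.08 ± 0.15 CPM at 96 h (n = 4), or -0.65 ± 0.19 on the log2 scale (edgeR adjusted p = 0.0408). At 48 h the log2 fold change was -0.56 ± 0.21 and did not pass (edgeR adjusted p = 0.104). The 96 h call lay near the threshold. It was lost without any 1 of TP07, TP11, TP12, TP15, TP16, TP17 or TP18 (log2 fold changes of -0.69 to -0.58, edgeR adjusted p from 0.0523 to 0.137), and the authors' deposited table lists an FDR of 0.108.

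FGF18, of the same subfamily as FGF8 and FGF17 (chromosome 6, 169666980 to 169739946, plus strand), was 2.08, 5.27 and 4.65 CPM in TP07, TP09 and TP11. It was 4.11, 4.47 and 2.01 CPM in TP08, TP10 and TP12, and 0.92, 2.64, 1.97 and 2.59 CPM in TP15 to TP18. The 3 groups overlapped, with TP07 and TP12 inside the range of the 96 h animals and TP15 below all others. The log2 fold changes were -0.18 ± 0.45 at 48 h and -0.97 ± 0.42 at 96 h (edgeR adjusted p = 0.83 and 0.133).

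**Figure D2:**
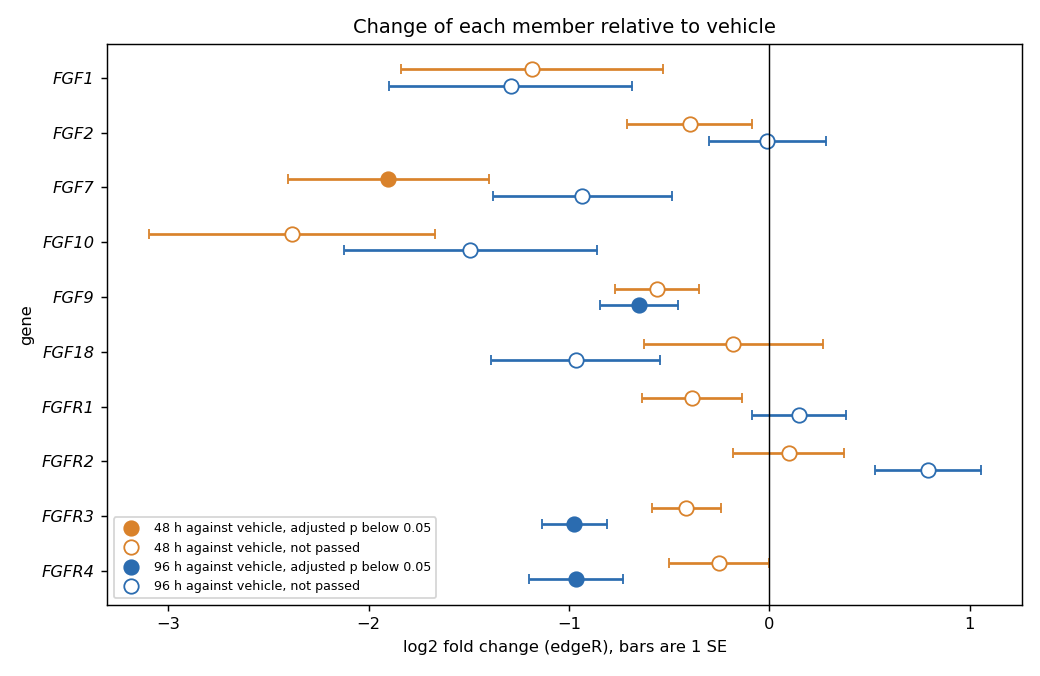
Log2 fold change of each member against vehicle with bars of 1 SE, at 48 h (orange) and 96 h (blue); filled points have an edgeR adjusted p below 0.05. The 4 filled points, FGF7 at 48 h and FGF9, FGFR3 and FGFR4 at 96 h, all lie below 0, and FGF10 has the lowest estimate at each time, with wide errors.

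Among the receptors, FGFR3 and FGFR4 fell at 96 h, and FGFR1 and FGFR2 did not pass the test. FGFR3 (chromosome 5, 1908378 to 1922902, plus strand) was 48.1, 36.4 and 34.4 CPM in TP07, TP09 and TP11. It was 33.7, 27.5 and 28.0 CPM in TP08, TP10 and TP12, and 19.5, 23.2, 15.4 and 22.5 CPM in TP15 to TP18. The 3 groups did not overlap and were ordered vehicle, 48 h, 96 h. Means were 39.6 ± 7.37, 29.8 ± 3.42 and 20.2 ± 3.53 CPM in that order. The log2 fold change at 96 h was -0.97 ± 0.16 (edgeR adjusted p = 0.00325), and the call held in all 20 alternative analyses. At 48 h it was -0.41 ± 0.17 and did not pass (edgeR adjusted p = 0.147).

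FGFR4 (chromosome 6, 175713976 to 175724855, plus strand) had the lowest level per kb of exon of the receptors in each group. FGFR4 was 6.24, 6.95 and 8.53 CPM in TP07, TP09 and TP11. It was 4.72, 6.78 and 6.73 CPM in TP08, TP10 and TP12, and 3.92, 4.92, 2.99 and 2.98 CPM in TP15 to TP18. All 96 h animals lay below all vehicle animals, while 48 h animals overlapped both. FGFR4 fell from 7.24 ± 1.17 to 3.70 ± 0.925 CPM at 96 h, or -0.96 ± 0.23 on the log2 scale (edgeR adjusted p = 0.0193). At 48 h it was -0.25 ± 0.25 (edgeR adjusted p = 0.547). The 96 h call was lost without TP11 (log2 fold change -0.83, edgeR adjusted p = 0.0815) or TP17 (-0.88, edgeR adjusted p = 0.0529), and with age class as a block (-1.02, edgeR adjusted p = 0.0642).

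Germ cell markers were lower in the same libraries. Of 7 measured markers of undifferentiated spermatogonia 1 was called lower at 48 h and 5 at 96 h, with median log2 fold changes of -0.54 and -0.83. Their summed level was 334 to 355 CPM in vehicle, 206 to 228 CPM at 48 h and 165 to 235 CPM at 96 h, and 0 of them were at 0 counts. Of 6 general germ cell markers 1 was called lower at 48 h and 4 at 96 h, with sums of 345 to 471, 246 to 351 and 192 to 309 CPM. Over all symbols 3.29% were called lower at 48 h and 6.88% at 96 h. Set against the spermatogonial sum, FGFR3 was 11.4% ± 1.97 of it in vehicle, 13.8% ± 1.74 at 48 h and 10.6% ± 2.34 at 96 h (SD over 3, 3 and 4 animals), so the ratio overlapped between all groups. Set against the general germ cell sum, FGFR3 was 9.39% ± 1.7, 9.73% ± 1.4 and 8.19% ± 0.779 of it in the same order. FGFR4 was 1.73% ± 0.359, 2.04% ± 0.708 and 1.53% ± 0.395 of the general germ cell sum. The part of germ cell content in the fall of both receptors was not tested.

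FGFR1 (chromosome 8, 38693174 to 38751421, minus strand) had the highest mean level per kb of exon of all members in each group. FGFR3 was above it per kb in TP07 (11.16 against 11.06) and TP08 (7.83 against 7.38). FGFR1 was 71.3, 84.2 and 75.2 CPM in TP07, TP09 and TP11. It was 47.5, 71.0 and 57.9 CPM in TP08, TP10 and TP12, and 118, 55.5, 97.2 and 70.1 CPM in TP15 to TP18. All 48 h animals lay below the vehicle animals, TP10 only just and TP08 furthest, and the 96 h animals lay on both sides of them. The log2 fold change was -0.39 ± 0.25 at 48 h and 0.15 ± 0.23 at 96 h (edgeR adjusted p = 0.345 and 0.688), and at 96 h it was -0.01 with upper-quartile scaling and -0.05 without TP15.

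FGFR2 (chromosome 9, 117481932 to 117605565, minus strand), the receptor of FGF7 and FGF10, was 21.5, 20.9 and 28.6 CPM in TP07, TP09 and TP11. It was 19.3, 33.3 and 23.5 CPM in TP08, TP10 and TP12, and 54.8, 29.3, 49.5 and 30.9 CPM in TP15 to TP18. All 96 h animals lay above all vehicle animals, TP16 and TP18 only just. The mean was 41.1 ± 13 CPM at 96 h against 23.7 ± 4.28 CPM in vehicle, a log2 fold change of 0.79 ± 0.26 that did not pass (edgeR adjusted p = 0.0617). It passed with DESeq2 (adjusted p = 0.0137) and without TP10, TP16 or TP18 (log2 fold changes of 0.79 to 0.92, edgeR adjusted p = 0.0497, 0.0391 and 0.0463), and the authors' deposited table lists an FDR of 0.0228. At 48 h it was 0.10 ± 0.28 (edgeR adjusted p = 0.852). Counts are per gene, so the splice forms that bind different ligands, for which the deposited models hold 15 transcripts of FGFR2, 23 of FGFR1 and 17 of FGFR3, are not separated.

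Among the 96 h animals, TP15 and TP17 had the highest levels of FGFR1, FGFR2, FGF2 and FGF7, and TP16 the lowest. Other members were ordered differently: FGF10 was highest in TP15 and lowest in TP17, FGF1 highest in TP15 and lowest in TP16, and FGF9, FGF18 and FGFR4 highest in TP16. TP15 and TP17 had the highest sums of stromal markers (4785 and 5290 CPM, against 2449 in TP16 and 3050 in TP18). They also led for 6 peritubular myoid markers (1521 and 1410 CPM, against 793 and 916) and for 4 endothelial markers (99.9 and 91.8 CPM, against 44.5 and 66.9). The same held for macrophage markers (343 and 365 CPM, against 185 and 280) and rete and duct markers (44.0 and 48.6 CPM, against 34.9 and 36.6). Their Sertoli cell sums were the lowest (1995 and 1769 CPM, against 2100 and 2096). Both libraries also had the lowest totals (21998786 and 21824233 counts) and TMM factors (0.939 and 0.905) of all. TP15 and TP17 had the lowest sums of the 6 germ cell markers (212 and 192 CPM, against 282 and 308) and the lowest FGFR3 (19.5 and 15.4 CPM). Sums of the spermatogonial markers were ordered otherwise, with 200, 165, 173 and 235 CPM in TP15 to TP18. TP16, with the highest FGFR3 of the 96 h group, had the lowest of these sums. None of the 7 stromal, 6 peritubular and 4 endothelial markers was at 0 counts in any group. The parts of tissue composition, depth and scaling in the spread of these members within the 96 h group were not tested.

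**Figure D3:**
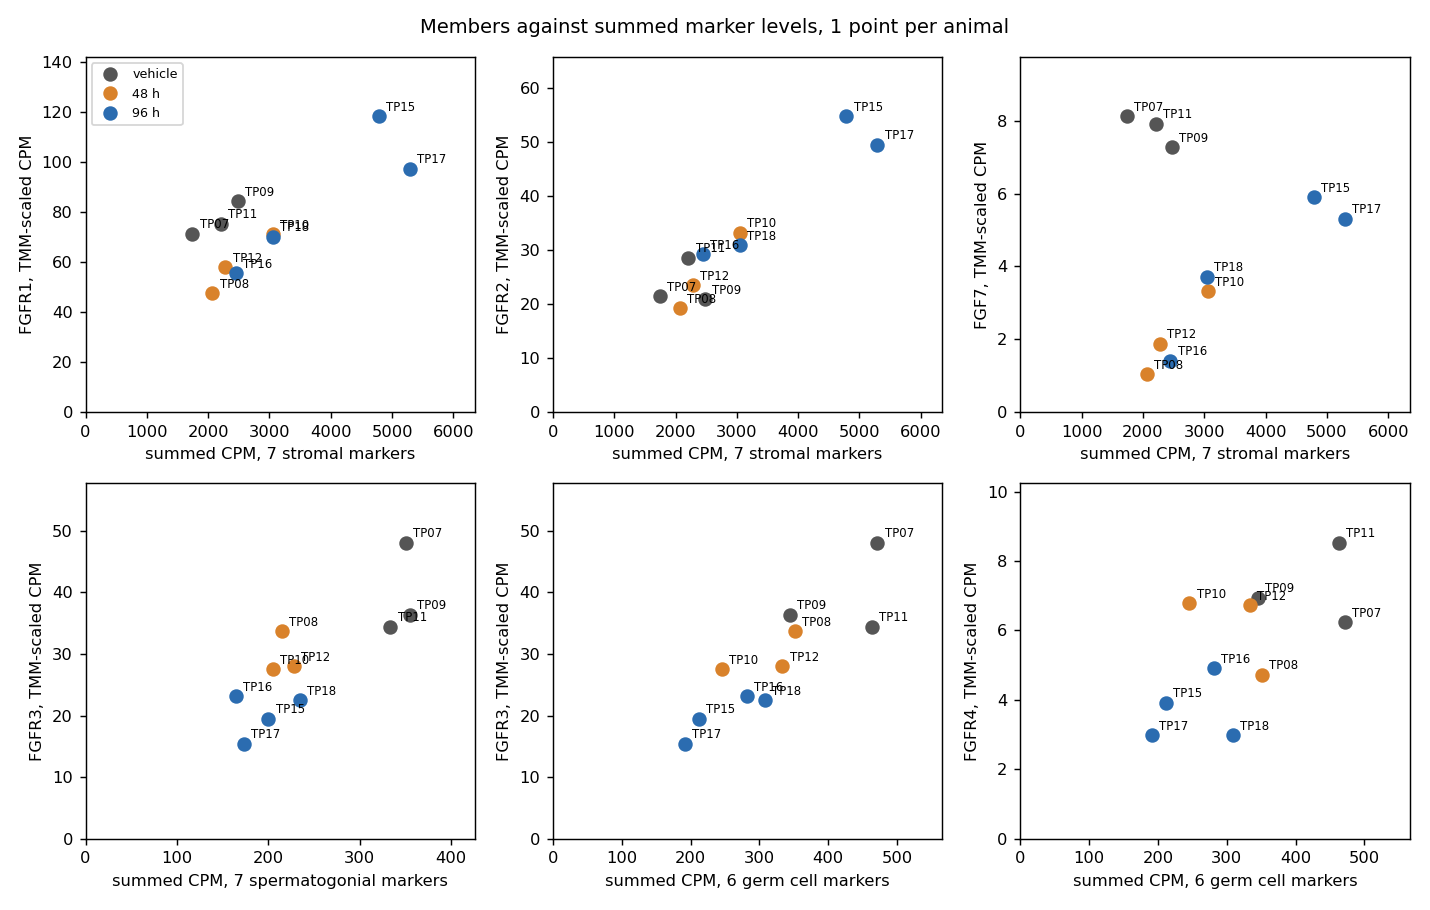
CPM of a member (vertical) against the summed CPM of a marker list (horizontal) with 1 labelled point per animal, coloured by group. FGFR1 and FGFR2 are highest in TP15 and TP17, where stromal markers are highest, and FGF7 is highest in the 3 vehicle animals. The vehicle animals have the highest FGFR3 and the highest spermatogonial sums. Within the 96 h group TP16 has the lowest spermatogonial sum and the highest FGFR3, whereas TP15 and TP17 have the lowest FGFR3 and germ cell sums. FGFR3 and the germ cell sum order the 48 h animals alike, but not the vehicle animals.

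Exonic length here covers all transcript models of a gene together, and need not be that of the transcripts expressed. Levels per kb therefore compare genes only roughly. Divided by this length, the 4 receptors together gave 27.6 ± 0.364 CPM per kb in vehicle, 22.5 ± 2.83 at 48 h and 27.0 ± 6.27 at 96 h. The 6 ligands together gave 12.8 ± 2.21, 7.31 ± 1.81 and 8.78 ± 2.53 CPM per kb in the same order. FGFR1 made up 43.3% ± 4.2, 40.2% ± 3.28 and 48.1% ± 5.3 of the receptor total. FGFR3 made up 33.3% ± 5.73, 31.2% ± 7.04 and 18.4% ± 6.77, and FGFR2 17.2% ± 3.21, 22.3% ± 3.46 and 30.1% ± 3.23. FGFR2 thus exceeded FGFR3 in every 96 h library, with shares of 26.9% to 33.9% against 12.2% to 25.6%, while FGFR3 exceeded FGFR2 in every vehicle library, with 29.2% to 39.9% against 15.3% to 20.9%. These shares are a description and were not tested.

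**Figure D4:**
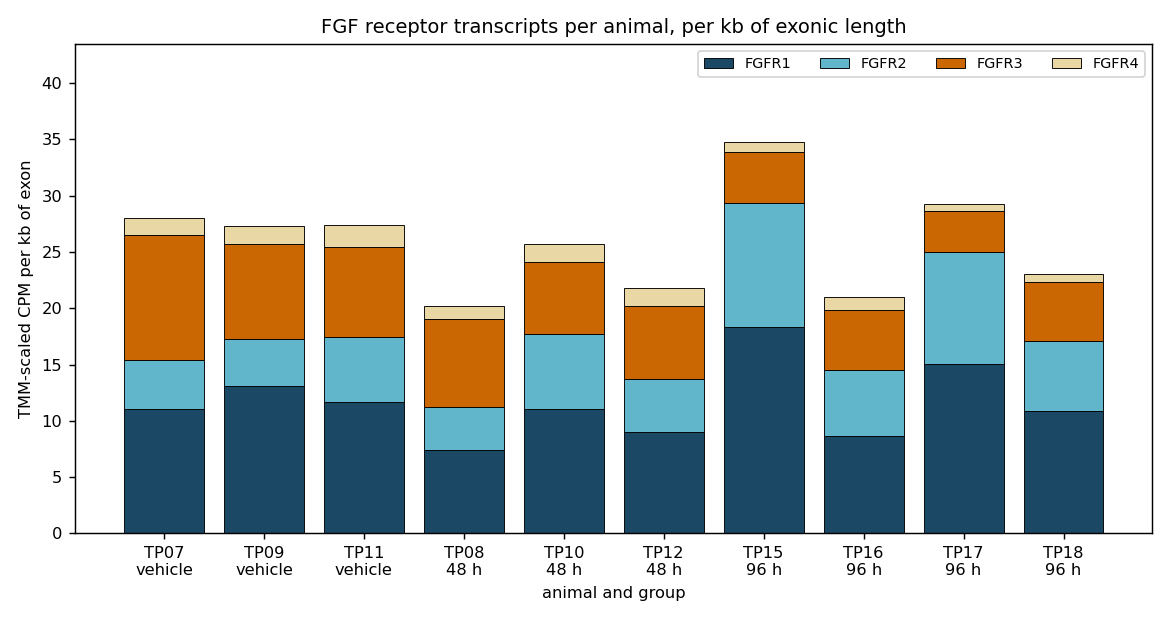
Stacked TMM-scaled CPM per kb of exon for the 4 receptors in each animal. The FGFR3 segment is larger than that of FGFR2 in the 3 vehicle animals and smaller in the 4 animals treated for 96 h, and TP15 has the tallest bar.

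In vehicle testis the order per kb was FGFR1 (11.9 ± 1.03 CPM per kb), FGFR3 (9.21 ± 1.71), FGF2 (5.40 ± 1.04), FGFR2 (4.75 ± 0.859), FGF1 (2.66 ± 2.89), FGF10 (1.71 ± 0.445), FGFR4 (1.69 ± 0.274), FGF7 (1.29 ± 0.0741), FGF9 (1.01 ± 0.161) and FGF18 (0.777 ± 0.328). The library ranges of neighbours overlapped in that order except between FGFR3 and FGF2, between FGFR4 and FGF7 and between FGF7 and FGF9. At 48 h FGF7 and FGF10 took the last places with 0.344 ± 0.19 and 0.328 ± 0.168 CPM per kb, and at 96 h FGF18 was last with 0.394 ± 0.155.

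Direct comparison of 96 h with 48 h gave 0 calls among the 10 members with edgeR (1.26% of symbols were called higher and 0.439% lower), with 4 at an unadjusted p below 0.05 (24.2% of symbols). FGFR3 had the smallest p, at -0.56 ± 0.16 on the log2 scale (edgeR adjusted p = 0.113), and it was the member whose 96 h animals all lay below its 48 h animals (11.6% of symbols). FGFR3 and FGFR4 passed with DESeq2 (adjusted p = 0.0306 and 0.0468). FGF7 and FGF10 were higher in the mean at 96 h than at 48 h, by 0.97 ± 0.47 and 0.89 ± 0.67 on the log2 scale, without passing (edgeR adjusted p = 0.268 and 0.455). For FGF10 this turned to -0.02 without TP15.

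The wider pathway was described with 5 lists of 103 genes, of which 85 could be measured on their own, 5 shared a locus with other genes and 13 had no row in the table. At 48 h 9 of the 85 were called higher and 2 lower (10.6% and 2.35%), and at 96 h 11 higher and 6 lower (12.9% and 7.06%), beside 14.5% and 3.29% of all symbols at 48 h and 17.2% and 6.88% at 96 h. Without TP09 or TP11 4 and 5 were higher at 48 h, and 1 was lower without TP07, TP11, TP08 or TP12. At 96 h 5 were higher without TP07 or without TP11, and 3, 2 and 2 were lower without TP07, TP09 and TP11. Their median log2 fold change was -0.01 at 48 h and 0.00 at 96 h. Of 29 calls in the 3 comparisons, 8 held in every alternative analysis, and all 29 kept their direction. With age class as a block 16 of the 29 calls were lost, 4 at 48 h (FGF17, GPC5, EXT2 and PHLDA1) and 12 at 96 h, and without both animals over 20 months 17 were lost, 7 at 48 h, 9 at 96 h and that of SDC4 between 96 h and 48 h.

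Of 16 other FGF ligands 8 were measured, and FGF17 was the one that rose. That was 12.5% of the 8 at each time, beside 14.5% of all symbols at 48 h and 17.2% at 96 h. FGF17, a relative of FGF18, was 0.859, 1.48 and 1.65 CPM in TP07, TP09 and TP11, and 4.92, 2.45 and 2.81 CPM in TP08, TP10 and TP12. It was 2.95, 5.21, 3.85 and 2.55 CPM in TP15 to TP18. Every treated animal lay above every vehicle animal. FGF17 rose by log2 fold changes of 1.35 ± 0.38 at 48 h and 1.46 ± 0.36 at 96 h (edgeR adjusted p = 0.0383 and 0.0205). Omission of any 1 of 6 animals (TP07, TP09, TP11, TP08, TP12 or TP17) ended the 48 h call (log2 fold changes of 0.99 to 1.54), and omission of TP07 ended the 96 h call (1.22, edgeR adjusted p = 0.082). Both calls were also lost with age class as a block and without the 2 animals over 20 months. FGF4, a secreted ligand, and FGF14, an intracellular relative that modulates sodium channels, fell at 96 h by log2 fold changes of -1.29 ± 0.32 and -1.20 ± 0.28 from vehicle levels of 1.58 and 2.28 CPM. These 2 were 25% of the 8 measured, beside 6.88% of all symbols called lower at 96 h. The FGF4 call was lost without TP07 or TP11 (-1.31 to -1.21) and the FGF14 call without TP09 (-1.05). FGF22 and FGF4 had the smallest p between 96 h and 48 h and did not pass, with -1.39 ± 0.42 and -1.06 ± 0.33.

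Of 10 measured co-receptors, decoys and carriers 0 were called at 48 h with edgeR, where ANOS1 and FLRT2, proteins that bind FGF receptors, had log2 fold changes of -0.88 ± 0.29 and -0.46 ± 0.21. Over all symbols 14.5% were called higher and 3.29% lower at 48 h, and 17.2% higher and 6.88% lower at 96 h. At 96 h KL, the co-receptor of hormone-like FGFs, fell by -0.87 ± 0.27 (edgeR adjusted p = 0.0493), a call that was lost without any 1 of TP07, TP09, TP11, TP08, TP10, TP12, TP15 or TP17 (-0.96 to -0.69). Between 96 h and 48 h KL and FLRT2 differed by -0.65 ± 0.27 and 0.37 ± 0.20 and did not pass. The decoy receptor FGFRL1 was 7.67 CPM in both vehicle and 96 h testes and 5.98 CPM at 48 h, without a call.

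Of 26 measured heparan sulfate genes 3 were called higher (11.5%) and 1 lower (3.85%) in each comparison with vehicle. All symbols had 14.5% higher and 3.29% lower at 48 h, and 17.2% higher and 6.88% lower at 96 h. SDC3, a syndecan core protein that carries heparan sulfate, rose from 22 CPM in vehicle to 65.9 CPM at 48 h and 62.7 CPM at 96 h, by log2 fold changes of 1.58 ± 0.21 and 1.51 ± 0.20 (edgeR adjusted p = 0.00131 and 0.000992). Its locus also carries an unnamed gene identifier. SDC4, another syndecan, rose at 48 h by 0.67 ± 0.13 (edgeR adjusted p = 0.00673) and was back near vehicle at 96 h. GPC1, a glypican, fell at 96 h by -0.77 ± 0.15 (edgeR adjusted p = 0.00629), and these calls of SDC3, SDC4 and GPC1 held in all 20 alternatives. EXT2, of the enzyme that builds the heparan sulfate chain, rose at 48 h by 0.40 ± 0.11, and GPC5 fell by -0.82 ± 0.22. EXTL2 and EXTL3, relatives of EXT2, rose at 96 h by 0.46 ± 0.10 and 0.26 ± 0.07. EXT2 at 48 h was lost without TP07, TP09, TP11, TP08, TP10 or TP18 (0.32 to 0.40), and GPC5 without any 1 of the 6 vehicle and 48 h animals (-0.90 to -0.67). EXTL2 was lost without TP11 (0.41) and EXTL3 without TP07, TP11, TP15, TP17 or TP18 (0.23 to 0.26).

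Among 20 measured adaptors and relay kinases 2 were called higher at 48 h (10%), 4 at 96 h (20%) and 0 lower. The shares over all symbols were 14.5% and 17.2% higher, and 3.29% and 6.88% lower. GRB2, the adaptor that recruits SOS1, was 63.9, 84.2 and 74.7 CPM in vehicle, 48 h and 96 h testes, with log2 fold changes of 0.40 ± 0.07 and 0.23 ± 0.07 (edgeR adjusted p = 0.00525 and 0.0389). PTPN11, a phosphatase needed for RAS activation, rose by 0.53 ± 0.12 and 0.47 ± 0.11. The kinase ARAF rose at 96 h by 0.38 ± 0.10. The GRB2 call at 96 h was lost without any 1 of the 10 animals (0.20 to 0.24). That of PTPN11 was lost without TP09 at 48 h (0.48) and without TP09 or TP11 at 96 h (0.41 to 0.47). ARAF was lost without TP07, TP11, TP15 or TP17 (0.33 to 0.38). Between 96 h and 48 h HRAS and SOS1 had the smallest p, at -0.44 ± 0.11 and 0.48 ± 0.14, and did not pass.

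Of 21 measured feedback and target genes 3 rose (14.3%) and 1 fell (4.76%) at 48 h, and 3 rose (14.3%) and 2 fell (9.52%) at 96 h. Over all symbols 14.5% rose and 3.29% fell at 48 h, and 17.2% rose and 6.88% fell at 96 h. SPRY1, a feedback inhibitor of receptor tyrosine kinases, was 26.4, 34.6 and 29.0 CPM in TP07, TP09 and TP11, 17.9, 15.9 and 14.7 CPM in TP08, TP10 and TP12, and 24.1, 15.7, 20.5 and 17.3 CPM in TP15 to TP18. All treated animals lay below all vehicle animals. SPRY1 fell by -0.89 ± 0.17 at 48 h and -0.63 ± 0.16 at 96 h (edgeR adjusted p = 0.00814 and 0.0228). DUSP6, the phosphatase that switches off ERK, went the other way. It was 32.1, 31.7 and 31.1 CPM in TP07, TP09 and TP11, 45.7, 39.2 and 44.0 CPM in TP08, TP10 and TP12, and 44.2, 38.4, 46.1 and 48.0 CPM in TP15 to TP18. DUSP6 rose by 0.44 ± 0.10 and 0.48 ± 0.10 (edgeR adjusted p = 0.0196 and 0.00887). MYC, a growth gene reached by many pathways, rose by 1.34 ± 0.18 and 1.09 ± 0.17, and PHLDA1 rose by 0.88 ± 0.26 and 1.14 ± 0.24. DUSP5 fell at 96 h by -0.75 ± 0.20. Other feedback genes did not pass, with SPRY2 at 0.02 ± 0.15 and 0.00 ± 0.14 and ETV5 at -0.07 ± 0.16 and -0.04 ± 0.15 at 48 h and 96 h. SPRY2, ETV5 and FGFRL1 were chosen after their values were seen. Calls lost without 1 animal were SPRY1 at 96 h (TP09 or TP11, -0.65 to -0.51), DUSP5 (TP07, TP09, TP11 or TP15, -0.78 to -0.68) and DUSP6 at 48 h (TP09, TP11, TP08 or TP12, 0.39 to 0.44). PHLDA1 was lost at 48 h without any 1 of the 10 animals except TP08 (0.58 to 1.01), and at 96 h without TP07 (1.04). Between 96 h and 48 h SDC4, of the heparan sulfate genes, was the one gene of the 5 lists that was called (-0.78 ± 0.12, edgeR adjusted p = 0.0158). That was 1.18% of the 85 measured genes, beside 0.439% of all symbols called lower. DUSP5 and DUSP4 did not pass (-0.64 ± 0.20 and -0.61 ± 0.21). Omission of TP08, TP10 or TP17 ended the SDC4 call (-0.76 to -0.73).

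**Figure D5:**
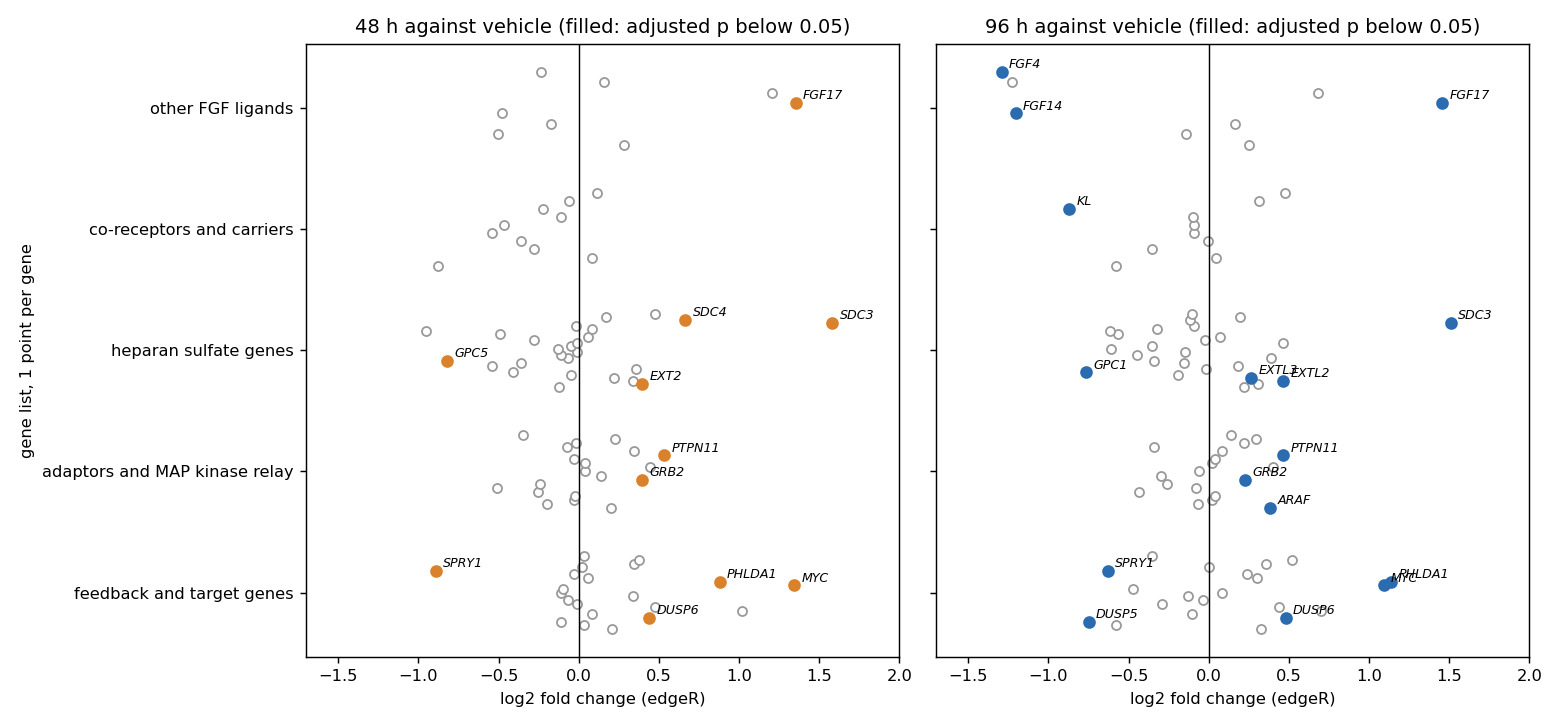
Log2 fold change of the measured genes of the 5 pathway lists, all but 1, against vehicle at 48 h (left) and 96 h (right), with filled, named points for an edgeR adjusted p below 0.05. FGF17, SDC3 and MYC lie above 1 in both panels.

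Over the 10 libraries, which share the group differences, some genes had profiles close to those of a member. For FGF7 the 2 with the highest Pearson r of log2 CPM among 13859 genes were EDNRB (0.98) and PRKG1 (0.97), and for FGF10 they were RCCD1 (0.96) and SMAD3 (0.95). FGFR3 was closest to MB21D2 (0.99), FGFR4 to CCDC180 (0.96) and AP3B2 (0.93), FGFR1 to MAML2 and ADAMTS10 (0.97 each) and FGFR2 to DDR2 (0.97) and BTK (0.95). FGF2 was closest to KLF2 and RUFY2 (0.96 each), FGF9 to PIK3IP1 (0.96), FGF18 to CCER2 (0.90) and FAM24A (0.86) and FGF1 to ZNF92 (0.93) and SERPINB1 (0.87). These values are descriptions of 10 libraries.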

How the data were processed

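Total RNA of testis from 10 macaques was sequenced as stranded libraries. The submitters' processing notes name HTSeq 0.6.1p1 and edgeR, Cufflinks 2.2.1, the aligners TopHat2 2.1.1 and Bowtie2 2.2.8, the trimmer cutadapt 1.9.1, and the build rheMac8. The deposited tables of the authors hold whole-number counts for each locus, CPM (count over library total), log2 fold changes and p-values. Their log2 and p-values are used only where their table is named. The exon coordinates (another kind of value) come from the deposited transcript models. Every one of 26813 loci reached 1 CPM in at least 3 libraries, and the kept loci held 98.53% to 98.96% of each library.

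These counts went into edgeR 4.0.16 under R 4.3.3 (a robust quasi-likelihood fit with TMM scaling of 3 group means over all 10 libraries, Benjamini-Hochberg over all loci). SE comes from the F statistic. Levels are mean ± SD over animals. Where several loci had 1 symbol, that with the most counts stood for it. Chromosome numbers were assigned to contigs by the majority of gene names in the reference table of T2T-MMU8v2.0. No 2 replicates agreed within sampling noise (chi-square per degree of freedom 15.8 to 49.6). In simulated 48 h data over 26813 loci, with 100 loci changed by each size, 80% of 4-fold and 35% of 2-fold changes were recovered. Far fewer loci changed there than were called in the real 48 h data (14.5% of symbols higher and 3.29% lower). These rates therefore need not hold for the real data.

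All members are described. Of each pathway list, up to 5 called genes per direction and comparison, or else the 2 with the smallest p, are named, and the 2 genes most like each member are named by Pearson r. Members and lists were chosen with earlier results of these data known. Alternatives were RLE and upper-quartile scaling, 2 count filters, exactTest, DESeq2 1.42.0, fits of the compared groups, age class as a block, omission of both animals over 20 months, summed loci and omission of each animal. The labels give no batch. The 96 h animals have the highest animal numbers, so a batch by number cannot be told apart from that group. Floors cover counting error only. The edgeR p-values weigh a group difference against the spread between the animals sampled, which the fit estimates over all 3 groups together. No sequences are printed, and a few genes that these rules select are counted but not reported here or plotted.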

Additional observations from a re-analysis of the deposited data

Results flagged for a closer look

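In a group of 4 animals a value was marked when its gap to the nearest other value took most of the group's range by Dixon's test, and 36 groups were tested, of which chance marks about 1 in 20. SDC3 at 96 h was 40.2 CPM in TP18 against 67.3 to 72.4 CPM in the other 3 animals, still above all vehicle animals (19.1 to 23.9 CPM). GRB2 at 96 h was 78.2 CPM in TP18 against 73.0 to 73.8 CPM in TP15, TP16 and TP17. The effects of 96 h and 48 h on SDC4 differed by -0.78 on the log2 scale (edgeR adjusted p = 0.0158 for 96 h against 48 h). No member was marked by either rule.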

How the results depend on the processing

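Of 897 recomputed values 760 were classed as the same. For a fold change this means the same direction and side of the threshold. For a count it means only a number within a set ratio of the main count. Of the others, 82 counts moved further than that, 19 fold changes lost a call, 16 gained one and 20 changed sign. FGFR3 at 96 h kept its call throughout (log2 -1.12 to -0.81). The causes of the changes below were not tested. Groups of 3 and 4 animals and members with as few as 19 counts limit precision. The groups share no animal numbers, but the age classes match TP07 with TP08, TP09 with TP10 and TP11 with TP12, so a block by age class also pairs vehicle with 48 h animals. It called 3227 loci at 48 h, with FGF7 still lower (-2.03, edgeR adjusted p = 0.0442) and FGF10 not passing (-2.46, edgeR adjusted p = 0.0854).

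With upper-quartile scaling, under which the median over all loci shifted on the log2 scale by -0.126 at 48 h and -0.148 at 96 h, FGF10 at 48 h passed (-2.506), FGFR2 at 48 h was -0.03 and FGFR1 at 96 h -0.011. Members lower at 48 h were then 2, pathway genes higher and lower 5 and 4 at 48 h and 7 and 15 at 96 h. RLE scaling gave 0.004 for FGF2 at 96 h. With a mean of at least 100 counts FGF10 at 48 h passed (-2.441), members lower were 2, pathway genes lower were 5 at 48 h, 11 at 96 h and 2 between 96 h and 48 h, where 465 loci were called; FGF18 could not be fitted. With exactTest FGF10 at 48 h (-2.381) and FGFR2 at 96 h (0.794) passed, members lower at 48 h were 2 and higher at 96 h 1, and between 96 h and 48 h 888 loci and 2 lower pathway genes were called.

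With DESeq2 FGF10 at 48 h (-2.356), FGFR2 at 96 h (0.806) and, between 96 h and 48 h, FGFR3 (-0.572) and FGFR4 (-0.722) passed, and FGF2 at 96 h was 0.005. Members lower were 2 at 48 h and 2 between 96 h and 48 h, and 1 was higher at 96 h. DESeq2 called 5079 loci at 48 h and 1846 between 96 h and 48 h, with 15 pathway genes higher and 4 lower at 48 h and 2 higher and 5 lower between 96 h and 48 h. With the compared groups alone FGF10 at 48 h passed (-2.336) and FGF9 at 96 h did not (-0.643), members lower at 48 h were 2, and 178 loci were called between 96 h and 48 h. Summed loci left 1 pathway gene lower at 48 h.

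All 96 h animals are of the 14-month class, which TP09 alone shares among the vehicle animals. The blocked contrast of 96 h with vehicle thus rests largely on TP09 and on the 48 h animals that link the classes. With age class as a block FGF9 (-0.583) and FGFR4 (-1.021) lost their calls at 96 h, leaving 1 member lower. FGFR1 was -0.064 at 96 h, and FGF1 was 0.363 between 96 h and 48 h. The blocked fit called 1762 loci at 96 h and 178 between 96 h and 48 h, with 4 pathway genes higher and 1 lower at 96 h. Without both animals over 20 months FGF7 at 48 h (-1.548) and FGF9 at 96 h (-0.585) lost their calls, leaving 0 members lower at 48 h, and FGF1 was 0.425 at 48 h and 0.131 at 96 h. Loci called were then 852, 1941 and 3, and pathway genes higher and lower 3 and 1 at 48 h, 6 and 2 at 96 h, and 0 lower between 96 h and 48 h.

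Leaving out 1 animal at a time gave 1564 to 3466 loci at 48 h, 2210 to 4685 at 96 h and 2 to 373 between 96 h and 48 h (2, 9 and 6 without TP08, TP10 and TP17). Members lower were 0 to 2 at 48 h and 1 to 3 at 96 h, and members higher at 96 h 0 to 1. Pathway genes higher were 4 to 9 at 48 h and 5 to 13 at 96 h, and lower 1 to 3, 2 to 7 and, between 96 h and 48 h, 0 to 2. At 48 h log2 fold changes ran from -1.609 to 0.238 for FGF1, -2.405 to -1.581 for FGF7, -2.759 to -2.032 for FGF10, -0.491 to 0.104 for FGF18 (0.067 without TP09) and -0.148 to 0.26 for FGFR2. At 96 h they ran from -1.716 to 0.131 for FGF1, -0.237 to 0.149 for FGF2 (0.1 without TP18), -0.777 to -0.583 for FGF9, -2.406 to -1.214 for FGF10, -0.051 to 0.299 for FGFR1, 0.623 to 0.952 for FGFR2 and -1.144 to -0.83 for FGFR4. Between 96 h and 48 h they ran from -0.294 to 0.122 for FGF1 (0.048 without TP16) and from -0.024 to 1.267 for FGF10.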
